A study of Mus musculus with 9 samples.

Results

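The genes examined were 10 regulators of programmed cell death, namely the anti-death genes Bcl2, Bcl2l1, Mcl1, Bcl2l2 and Cflar and the pro-death genes Bak1, Bcl2l11, Bid, Bad and Bmf. They were chosen by symbol, and all 10 were found among the 20926 genes of the deposited table. Blood RNA was sequenced from male DBA/1 mice, with 3 libraries in each of 3 groups. The labels give an age of 7 weeks, which in the paper is the age at division into groups. Arthritis induction and irradiation came after that age, so the mice were older when blood was taken. The Ctrl mice had no arthritis and no irradiation. In the CIA group arthritis was induced with collagen, which models rheumatoid arthritis in mice, by chick type II collagen in complete Freund's adjuvant, with a boost in incomplete Freund's adjuvant. Mice of the CIA+THz group were made arthritic in the same way, and their swollen ankles were irradiated at 0.1 THz for 30 min a day over 14 days under isoflurane. No anesthesia is described for the other groups, so anesthesia and irradiation cannot be told apart in any comparison with CIA+THz.

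Values are FPKM, fragments scaled to transcript length and library total, divided here by 1 factor per library, so levels can also be compared between genes. Across libraries the factor ranged from 0.847 to 1.24. Against the deposited values, the rescaling shifted CIA+THz against CIA by -0.28 and CIA+THz against Ctrl by -0.31 in log2 units. Log2 changes were taken after 0.1 was added to each rescaled value, which makes the changes of low genes look smaller. The table holds no counts, so the depth behind a value is unknown from it. The samples are labelled as blood leukocytes, but Alas2, the heme synthesis enzyme of red cell precursors, made up 11.4% to 16.7% of all FPKM, depending on the library. All 7 reticulocyte genes and all 6 leukocyte genes were above 0 in every library. Since the RNA came from mixed blood, fewer cells of a type and less RNA of a gene per cell cannot be told apart.

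Proteins of the Bcl2 family decide whether the outer mitochondrial membrane is opened to release cytochrome c. As a group, Bcl2, Bcl2l1 (Bcl-xL), Mcl1 and Bcl2l2 (Bcl-w) hold pore formers such as Bak1 and the BH3-only proteins in check. BH3-only proteins such as Bcl2l11 (Bim), Bid, Bad and Bmf bind and neutralise anti-death members when a cell is stressed or loses growth factors. Not every pair of members binds, and RNA levels do not show which do. Cflar (c-FLIP) lies outside the family and blocks caspase activation at death receptors. In blood, Bcl2 is known for the survival of resting lymphocytes, Mcl1 for that of neutrophils and many other leukocytes, and Bcl2l1 for that of late red cell precursors.

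Bcl2 lies on chromosome 1 at 106538178 to 106714274 on the minus strand in GENCODE on GRCm38, Bad on chromosome 19 at 6941861 to 6951899 on the plus strand, and Bmf on chromosome 2 at 118528757 to 118549687 on the minus strand. These 3 genes passed the criterion used below in CIA against Ctrl, and the 250 bases before a RefSeq start of each (GRCm38.p6) hold no annotated exon, apart from the last base for Bmf. The windows are shown for the sequence context of the genes that moved, 5′ to 3′ on the gene's strand, with each GGGCGG (GC box) of either strand in capitals. The Bcl2 window is chr1:106714291-106714540, the Bad window chr19:6941611-6941860 and the Bmf window chr2:118549687-118549936.
Bcl2: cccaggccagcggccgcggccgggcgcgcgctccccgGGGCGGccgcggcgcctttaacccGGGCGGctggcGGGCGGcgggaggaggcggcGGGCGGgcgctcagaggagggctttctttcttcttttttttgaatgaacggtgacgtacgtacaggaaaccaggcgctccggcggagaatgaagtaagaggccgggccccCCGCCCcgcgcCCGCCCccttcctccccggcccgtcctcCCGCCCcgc
Bad: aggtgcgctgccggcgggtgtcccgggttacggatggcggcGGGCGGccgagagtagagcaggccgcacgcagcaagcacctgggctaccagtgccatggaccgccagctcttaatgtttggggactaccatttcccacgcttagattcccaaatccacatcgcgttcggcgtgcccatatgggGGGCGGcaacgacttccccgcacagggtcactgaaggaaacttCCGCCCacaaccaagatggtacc
Bmf: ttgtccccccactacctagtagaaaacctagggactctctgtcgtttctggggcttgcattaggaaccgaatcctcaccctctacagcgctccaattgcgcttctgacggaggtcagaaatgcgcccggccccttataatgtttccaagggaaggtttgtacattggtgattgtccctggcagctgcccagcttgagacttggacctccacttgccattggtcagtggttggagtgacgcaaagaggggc
The Bcl2 window held 7 GC boxes with 74.8% G and C and 36 CG dinucleotides. The Bad window held 3 GC boxes and 62.8% G and C, and the Bmf window held 0 GC boxes, 3 CCAAT motifs and 54% G and C. Across all 32851 RefSeq windows of this length, 32.7% held a GGGCGG, 33.8% held a CCAAT on either strand, and the median was 52.4% G and C with 6 CG dinucleotides. None of TATAAA (12.4% of windows), CACGTG (6.02%), TTCNNNGAA (7.02%), TGANTCA (6.75%) or CCGGAA (12%) was found on either strand of the 3 windows. RefSeq lists further starts of Bad and Bmf, and the windows shown precede the outermost one. The window of a second Bad start (64.8% G and C, 230 of its bases in exons of Bad or Gpr137) held 0 GC boxes, 1 CCAAT and 1 CCGGAA. Those of 2 inner Bmf starts, without exon bases, held 0 GC boxes and 0 and 1 CCAAT. The window of Bak1, the fourth gene past the criterion, lies in exons of Bak1 and Ggnbp1 and is not shown.

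The members spanned a wide range of levels. Mcl1 was the most abundant, with a mean over the 9 libraries of 397 rescaled FPKM that 98.7% of the 12366 genes tested did not exceed, followed by Bcl2l1 at 362, Bcl2 at 98.4, Bid at 93.6, Cflar at 56.2, Bcl2l11 at 42.5, Bak1 at 31.1, Bad at 5.37, Bmf at 4.40 and Bcl2l2 at 2.19. The ranges of the libraries overlapped between Mcl1 and Bcl2l1, and between Bcl2 and each of Bid and Cflar. They also overlapped between Cflar and Bcl2l11, between Bcl2l11 and Bak1, and among Bad, Bmf and Bcl2l2. All other pairs, such as Cflar and Bak1, did not overlap. Within every library Bcl2 was above Cflar, Bcl2l11 above Bak1 and Bad above Bcl2l2. For the remaining overlapping pairs the order differed between libraries. All 10 members passed the filter of a mean rescaled FPKM of at least 0.1.

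**Figure D1:**
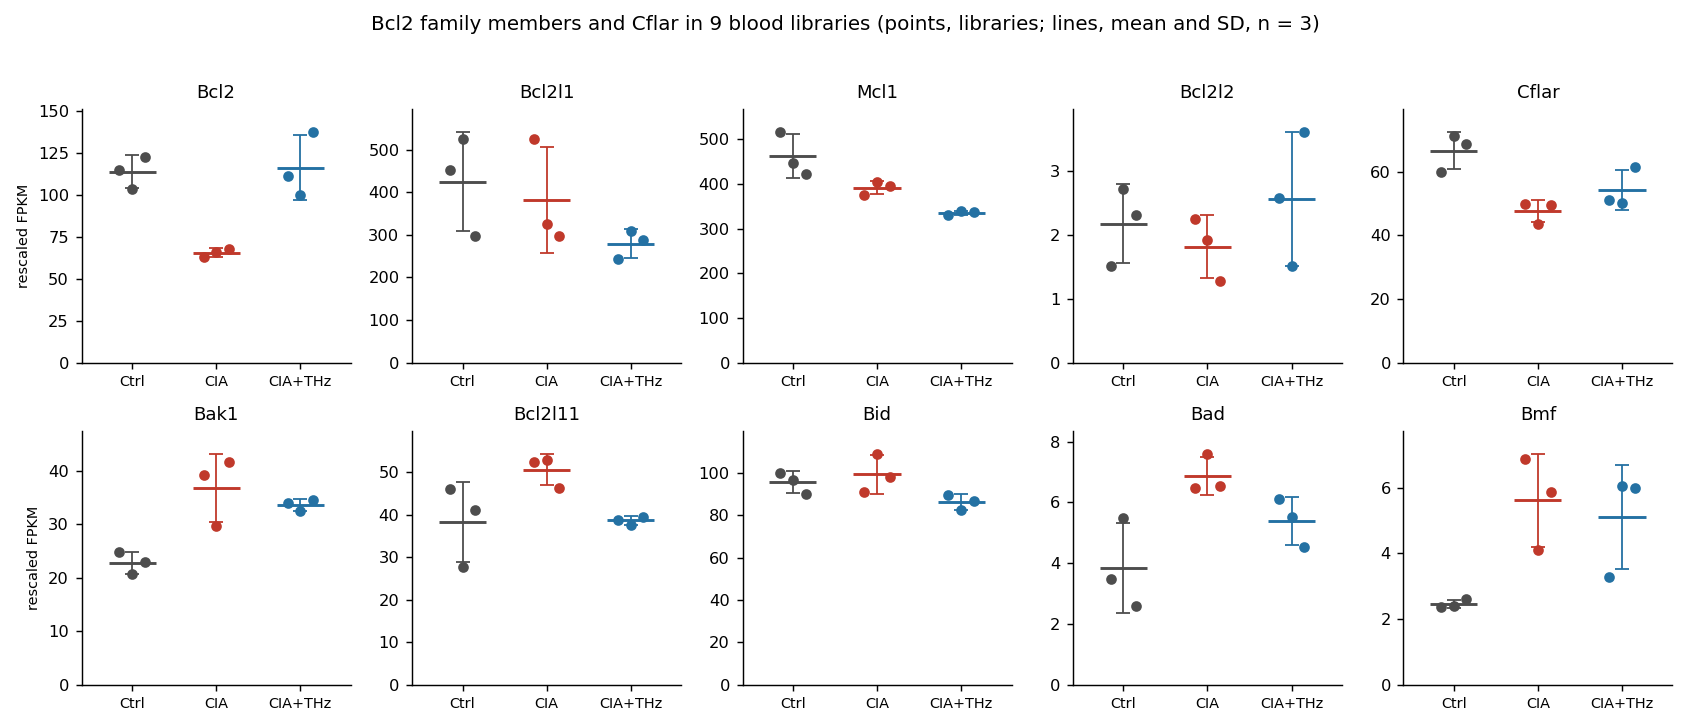
Rescaled FPKM (vertical axes, from 0) of the 10 members in the Ctrl, CIA and CIA+THz libraries, with each library as a point and lines for the mean and SD (n = 3). Bcl2 lies between 62.6 and 67.7 in CIA and at 99.7 or above in all libraries of the other groups, whereas Bak1 and Bmf are higher in both arthritis groups than in Ctrl.

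Across the 3 groups, limma's moderated F-test gave 6 of the 10 members a p under 0.05 before adjustment, against 21.3% of all genes tested. These were Bcl2, Bak1, Bmf, Mcl1, Cflar and Bad. After Benjamini-Hochberg adjustment over all genes tested, only Bcl2 stayed under 0.05 (adjusted p = 0.0170), against 2.53% of all genes. Bak1 was next with an adjusted p of 0.0523.

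Arthritis was compared with health in CIA against Ctrl. The lymphocyte survival gene Bcl2 was lower and the pro-death genes Bak1, Bad and Bmf were higher in the CIA group. The criterion, taken from the study, was a p under 0.05 before adjustment together with a log2 change of more than 0.67 in either direction. It was passed by 4 of the 10 members, against 9.04% of all genes tested. Of these, 3 of 10 were higher, against 4.79% of all genes, and 1 of 10 was lower, against 4.25%. At p alone the count was 5 of 10, against 17.3%, and at an adjusted p under 0.05 it was 0 of 10, against 0.154%. With all 3 groups in 1 fit, which shares the estimate of the spread, Bcl2 (adjusted p = 0.0105) and Bak1 (adjusted p = 0.0287) were under 0.05 in this comparison, among 474 genes. In 7 of the 10 members the 2 groups did not overlap, against 23.5% of all genes. The median log2 change of the members was -0.05 and that of all genes -0.01, since the members moved in both directions.

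Among the anti-death genes, Bcl2 was at 115, 103 and 123 rescaled FPKM in the Ctrl libraries, at 62.6, 65.9 and 67.7 in the CIA libraries and at 111, 99.7 and 137 in the CIA+THz libraries. All CIA libraries were below all others. In CIA against Ctrl, Bcl2 fell by 0.79 on the log2 scale (SE 0.11, adjusted p = 0.0513 in limma), from a mean of 114 ± 9.70 to 65.4 ± 2.56 (SD, n = 3). The T cell genes as a list were lower as well, with sums of 225 to 246 in CIA against 268 to 308 in Ctrl. Bcl2 shares 6.09% of its exonic bases with an antisense transcript, D630008O14Rik, which a library without strand cannot separate.

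Cflar, the brake on death receptor signaling, was at 60.0, 71.3 and 68.6 in Ctrl, at 50.0, 43.5 and 49.4 in CIA and at 51.0, 50.2 and 61.6 in CIA+THz. The CIA libraries lay below the Ctrl libraries, and the log2 difference was -0.48 (SE 0.12, adjusted p = 0.123), which is below the fold limit. Mcl1, the short-lived survival factor of neutrophils among other cells, was at 517, 447 and 422 in Ctrl, at 376, 405 and 396 in CIA and at 331, 341 and 337 in CIA+THz. The 3 groups of Mcl1 did not overlap after rescaling, although CIA against Ctrl did not pass the test (log2 difference -0.23, SE 0.12, adjusted p = 0.382). On the FPKM as deposited they overlapped in each comparison.

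Bcl2l1 was at 451, 526 and 297 in Ctrl, at 524, 324 and 297 in CIA and at 242, 308 and 288 in CIA+THz. Its Ctrl and CIA libraries varied too widely to separate the groups (log2 difference -0.16, 95% interval -0.83 to 0.51). Bcl2l2, the scarcest member, was between 1.51 and 2.72 in Ctrl, between 1.28 and 2.25 in CIA and between 1.52 and 3.61 in CIA+THz. The groups of Bcl2l2 overlapped in each comparison, and it shares 13.3% of its exonic bases with the readthrough gene Gm20521 on the same strand.

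Among the pro-death genes, Bak1, which forms the pore itself, was at 24.8, 20.7 and 23.0 in Ctrl, at 39.2, 29.7 and 41.7 in CIA and at 34.0, 32.4 and 34.6 in CIA+THz. Both arthritis groups lay above Ctrl without overlap, and Bak1 rose by 0.68 on the log2 scale in CIA against Ctrl (SE 0.16, adjusted p = 0.116). The monocyte genes as a list were higher as well, with sums of 647 to 749 in CIA against 461 to 487 in Ctrl. Scaling to them was chosen after the data were seen and lowers the change of nearly every gene in this comparison. Under that scaling neither Bak1 nor Bad nor Bmf passed the test, which does not show where their RNA came from. The change of Bak1 was close to the fold limit, and it fell below it when Ctrl 2 (0.61), CIA 1 (0.63) or CIA 3 (0.58) was left out. Bak1 shares exonic bases with the opposite-strand gene Ggnbp1, which stood at no more than 0.265 rescaled FPKM in any library.

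Bmf, a BH3-only gene whose protein is released from the cytoskeleton when cells detach, was at 2.38, 2.41 and 2.61 in Ctrl, at 6.89, 4.10 and 5.86 in CIA and at 3.28, 6.06 and 5.995 in CIA+THz. All arthritis libraries were above all Ctrl libraries. Bmf rose by 1.12 in CIA against Ctrl (SE 0.26, adjusted p = 0.111), the largest change of a member in this comparison. Bad, a BH3-only gene held inactive by growth factor signaling, was at 3.46, 5.49 and 2.6 in Ctrl, at 6.49, 7.59 and 6.53 in CIA and at 6.10, 5.51 and 4.55 in CIA+THz. Bad rose by 0.88 in CIA against Ctrl (SE 0.29, adjusted p = 0.206). The call was lost when Ctrl 1 (0.84), Ctrl 3 (0.64) or CIA 2 (0.81) was left out. The opposite-strand gene Gpr137 shares 20.5% of the exonic bases of Bad, and its own log2 difference was -0.05 (adjusted p = 0.957).

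Bcl2l11, the BH3-only gene best known for deleting lymphocytes at the end of a response, was at 46.0, 27.7 and 41.1 in Ctrl, at 52.4, 53.0 and 46.4 in CIA and at 38.9, 37.6 and 39.6 in CIA+THz. The CIA libraries were the highest by a narrow margin, but the spread of the Ctrl libraries was wide and CIA against Ctrl did not pass the test (log2 difference 0.43, SE 0.20, adjusted p = 0.314). Bid, which links death receptors to mitochondria, was between 90.1 and 100.02 in Ctrl, between 90.7 and 109 in CIA and between 82.2 and 89.5 in CIA+THz. Its log2 difference in CIA against Ctrl was 0.05 (95% interval -0.21 to 0.31). Bid shares 17.7% of its exonic bases with the opposite-strand gene Bcl2l13.

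**Figure D2:**
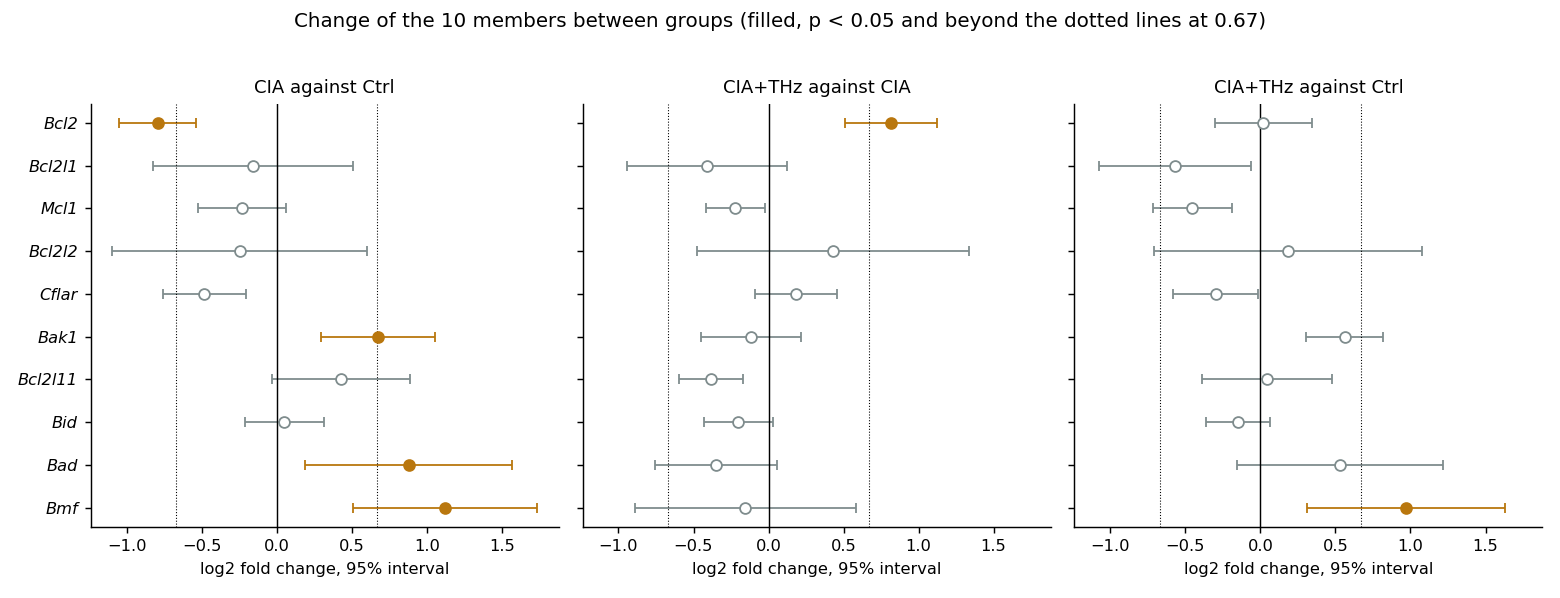
Log2 fold change of each member (horizontal axes, with 95% intervals from limma, n = 3 against 3) in the 3 comparisons. Filled points passed the criterion, and these were Bcl2, Bak1, Bad and Bmf in CIA against Ctrl, Bcl2 in CIA+THz against CIA and Bmf in CIA+THz against Ctrl.

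Irradiation was compared within arthritis in CIA+THz against CIA. Bcl2 was higher in the irradiated group and was the only member past the criterion, 1 of 10 against 4.54% of all genes tested. It rose by 0.81 on the log2 scale (SE 0.13, adjusted p = 0.172), to a mean of 116 ± 19.3 (SD, n = 3), and it passed the criterion whichever of the 6 libraries was left out (0.69 to 0.92). The T cell genes summed to 275 to 379 in CIA+THz against 225 to 246 in CIA. Members with a p under 0.05 alone were 3 of 10, against 13.2% of all genes, the other two being Bcl2l11 and Mcl1. An adjusted p under 0.05 was reached by 0 of 10 members and by 0% of all genes. In 6 of the 10 members the groups did not overlap, against 19.6%. That count depends on the rescaling, since on the FPKM as deposited Mcl1, Bcl2l11, Bid and Bad overlapped between these groups. The median log2 change was -0.18 over the members and 0.03 over all genes.

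Bcl2l11 had a log2 difference of -0.38 in CIA+THz against CIA (SE 0.09, adjusted p = 0.213), and all 3 irradiated libraries were below all 3 CIA libraries. On the FPKM as deposited the difference of Bcl2l11 was -0.11 and the groups overlapped. Mcl1 had a log2 difference of -0.22 (SE 0.08, adjusted p = 0.335), also without overlap after rescaling, but on the FPKM as deposited it was 0.056. The log2 differences of Bad (-0.35, adjusted p = 0.426), Bid (-0.20, adjusted p = 0.422) and Cflar (0.18, adjusted p = 0.529) did not pass the test, although their groups did not overlap after rescaling. Bak1 (-0.12, 95% interval -0.45 to 0.22) and Bmf (-0.16, 95% interval -0.89 to 0.58) overlapped between CIA+THz and CIA, and so did Bcl2l1 (-0.41, adjusted p = 0.474) and Bcl2l2 (0.43, adjusted p = 0.659).

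CIA+THz against Ctrl uses the same Ctrl and CIA+THz libraries as the other comparisons and is given for the members' own values. Bmf was the only member past the criterion, 1 of 10 against 7.88% of all genes, and rose by 0.97 (SE 0.28, adjusted p = 0.158). At p alone the count was 5 of 10, against 18.1%, and at an adjusted p under 0.05 it was 0 of 10, against 0.105%. Groups without overlap were seen in 4 of 10 members, against 24% of all genes. On the FPKM as deposited, Mcl1 and Bid overlapped between these groups and Bad did not. Bcl2 had a log2 difference of 0.02 (95% interval -0.31 to 0.35). Bak1 (0.56, adjusted p = 0.0973), Mcl1 (-0.45, adjusted p = 0.137), Bcl2l1 (-0.57, adjusted p = 0.234) and Cflar (-0.30, adjusted p = 0.259) had a p under 0.05 before adjustment but lay below the fold limit. On the FPKM as deposited, Bak1 (0.87) and Bad (0.83) also passed the criterion, Mcl1 was at -0.15 and Cflar was at 0.0091.

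A ratio of 2 genes in the same library does not depend on how the library was scaled. In mixed blood it can still change with the mix of cells, and it is not a balance within a cell. The log2 ratio of Bcl2 to its BH3-only antagonist Bcl2l11 was 1.32, 1.90 and 1.58 in Ctrl, 0.26, 0.32 and 0.55 in CIA and 1.51, 1.41 and 1.80 in CIA+THz. Each CIA library was thus below every other library, with a difference in means of -1.23 against Ctrl and of 1.20 for CIA+THz against CIA. Both had an exact two-sided permutation p of 0.1 (n = 3 against 3), the smallest this design allows, and an adjusted p of 0.15 over 12 such tests.

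The log2 ratio of Bcl2 to Mcl1 was -2.17, -2.11 and -1.78 in Ctrl, -2.59, -2.62 and -2.55 in CIA and -1.58, -1.77 and -1.29 in CIA+THz. No groups overlapped, although the lowest CIA+THz library was only just above the highest Ctrl library. The differences were -0.56 for CIA against Ctrl, 1.04 for CIA+THz against CIA and 0.47 for CIA+THz against Ctrl, each with an exact permutation p of 0.1 (n = 3 against 3). The log2 ratio of Bcl2l1 to Bcl2 was between 1.28 and 2.35 in Ctrl, between 2.13 and 3.07 in CIA and between 1.07 and 1.63 in CIA+THz. It differed by -1.23 in CIA+THz against CIA without overlap (exact permutation p = 0.1, n = 3 against 3), and overlapped between CIA and Ctrl. The ratio of Mcl1 to Bcl2l11 differed by -0.66 in CIA against Ctrl without overlap (exact permutation p = 0.1, n = 3 against 3), and by 0.16 with overlap in CIA+THz against CIA. In CIA+THz against Ctrl it differed by -0.50, again without overlap (exact permutation p = 0.1, n = 3 against 3). Summed over the 5 anti-death and the 5 pro-death members, the ratio of rescaled FPKM was between 5.73 and 7.53 in Ctrl, between 4.09 and 5.19 in CIA and between 4.30 and 4.89 in CIA+THz, with Mcl1 and Bcl2l1 as the largest part of the anti-death sum.

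**Figure D3:**
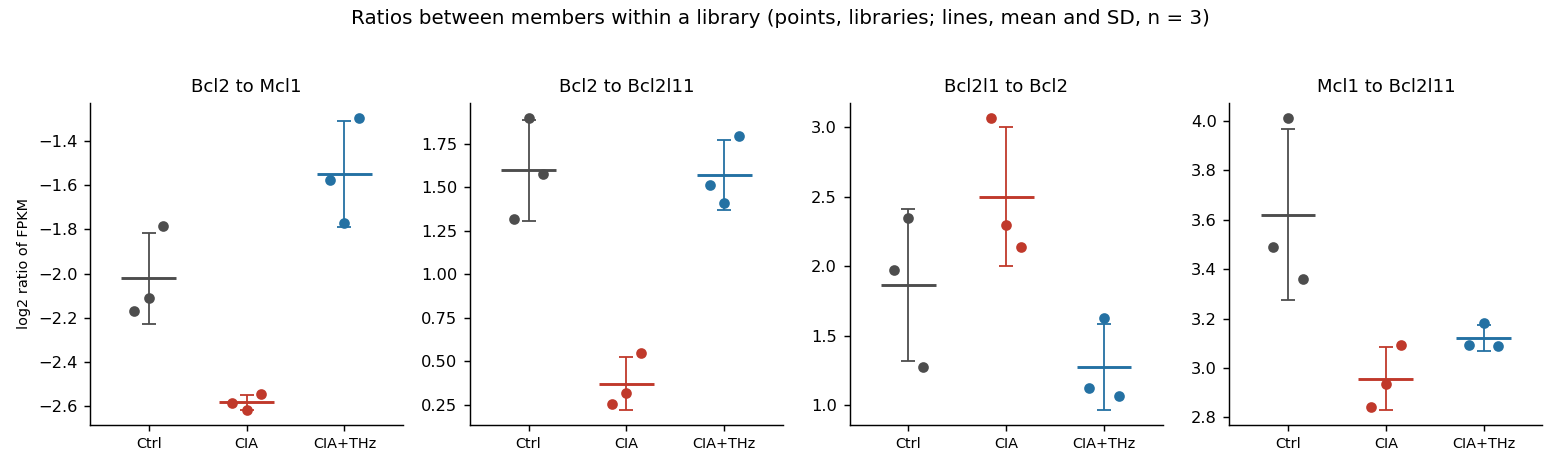
Log2 ratio of 2 members within a library (vertical axes, not from 0), with each library as a point and lines for the mean and SD (n = 3). In the panels of Bcl2 to Mcl1 and of Bcl2 to Bcl2l11 the 3 CIA libraries lie below all others.

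The wider pathway was described with lists of other genes. Of 14 other Bcl2 family genes, 10 were above 0 in some library of each group and 12 were tested, and 0 passed the criterion in CIA against Ctrl or in CIA+THz against CIA, where 9.04% and 4.54% of all genes did. The median log2 change of those 10 was 0.21 and -0.10 in these comparisons, against -0.01 and 0.03 over all genes tested. Hrk and Bcl2l10 were listed at 0 in all libraries. Bok was above 0 only in Ctrl 1 (0.667) and CIA+THz 3 (2.48). Bik was above 0 only in Ctrl 3 (1.09), CIA+THz 1 (0.765) and CIA+THz 3 (0.535). Both were thus at 0 in most libraries, among them all CIA libraries. These 4 genes were named after their values were seen. Bnip3l, a mitophagy receptor that clears mitochondria from maturing red cells, was by far the most abundant, with means of 5028 ± 1223 for Ctrl, 3603 ± 1029 for CIA and 3046 ± 699 for CIA+THz (SD, n = 3). Its log2 difference was -0.49 (adjusted p = 0.463) in CIA against Ctrl. Bcl2l13, which overlaps Bid, had -0.48 (adjusted p = 0.277) and 0.46 (adjusted p = 0.425) in the 2 comparisons. The damage-induced gene Pmaip1 (Noxa) had -0.03 (adjusted p = 0.9754) and -0.40 (adjusted p = 0.519). The reads of Bcl2a1b, an anti-death gene of myeloid cells and activated lymphocytes, can be split with the near-identical Bcl2a1a and Bcl2a1d, so its -0.05 and 0.34 are uncertain.

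Downstream of mitochondria, 1 of 10 genes passed the criterion in CIA against Ctrl, a share near the 9.04% of all genes tested, with a median log2 change of -0.03. Xiap, an inhibitor of caspases, was at 7.68, 7.59 and 7.18 in Ctrl, at 4.002, 3.95 and 6.20 in CIA and at 5.91, 5.86 and 5.87 in CIA+THz, and fell by 0.69 on the log2 scale (SE 0.23, adjusted p = 0.206). Of the more abundant genes, Birc2, also an inhibitor of apoptosis, had -0.48 (adjusted p = 0.279), the executioner caspase Casp6 had 0.45 (adjusted p = 0.288) and Birc3, a relative of Birc2, had -0.03 (adjusted p = 0.942). Birc2 and Casp6 were under 0.05 before adjustment but below the fold limit. In CIA+THz against CIA, 0 of these 10 genes passed the criterion, with changes between -0.35 and 0.34 and a median of -0.08.

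At death receptors, 1 of 8 genes passed the criterion in CIA against Ctrl, again near the 9.04% of all genes tested, with a median log2 change of -0.02. Tradd, the adaptor of the TNF receptor, was at 2.20, 2.41 and 3.999 in Ctrl, at 4.59, 6.84 and 4.20 in CIA and at 4.94, 4.68 and 4.95 in CIA+THz, and rose by 0.85 (SE 0.32, adjusted p = 0.241). The receptor Tnfrsf1a was at 72.3, 64.8 and 61.1 in Ctrl, at 74.4, 88.0 and 81.2 in CIA and at 60.8, 49.9 and 52.6 in CIA+THz. Its log2 difference was 0.30 (adjusted p = 0.262) in CIA against Ctrl and -0.58 (SE 0.11, adjusted p = 0.196) in CIA+THz against CIA, both without overlap, under 0.05 before adjustment and below the fold limit. Casp8, the caspase that Cflar blocks, had -0.23 (adjusted p = 0.563) and 0.33 (adjusted p = 0.306) in these comparisons, the kinase Ripk1 had 0.15 (adjusted p = 0.658) and -0.23 (adjusted p = 0.411), and Traf2 had 0.26 (adjusted p = 0.599) and -0.36 (adjusted p = 0.398). In CIA+THz against CIA, 0 of the 8 genes passed the criterion, with a median log2 change of -0.29.

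**Figure D4:**
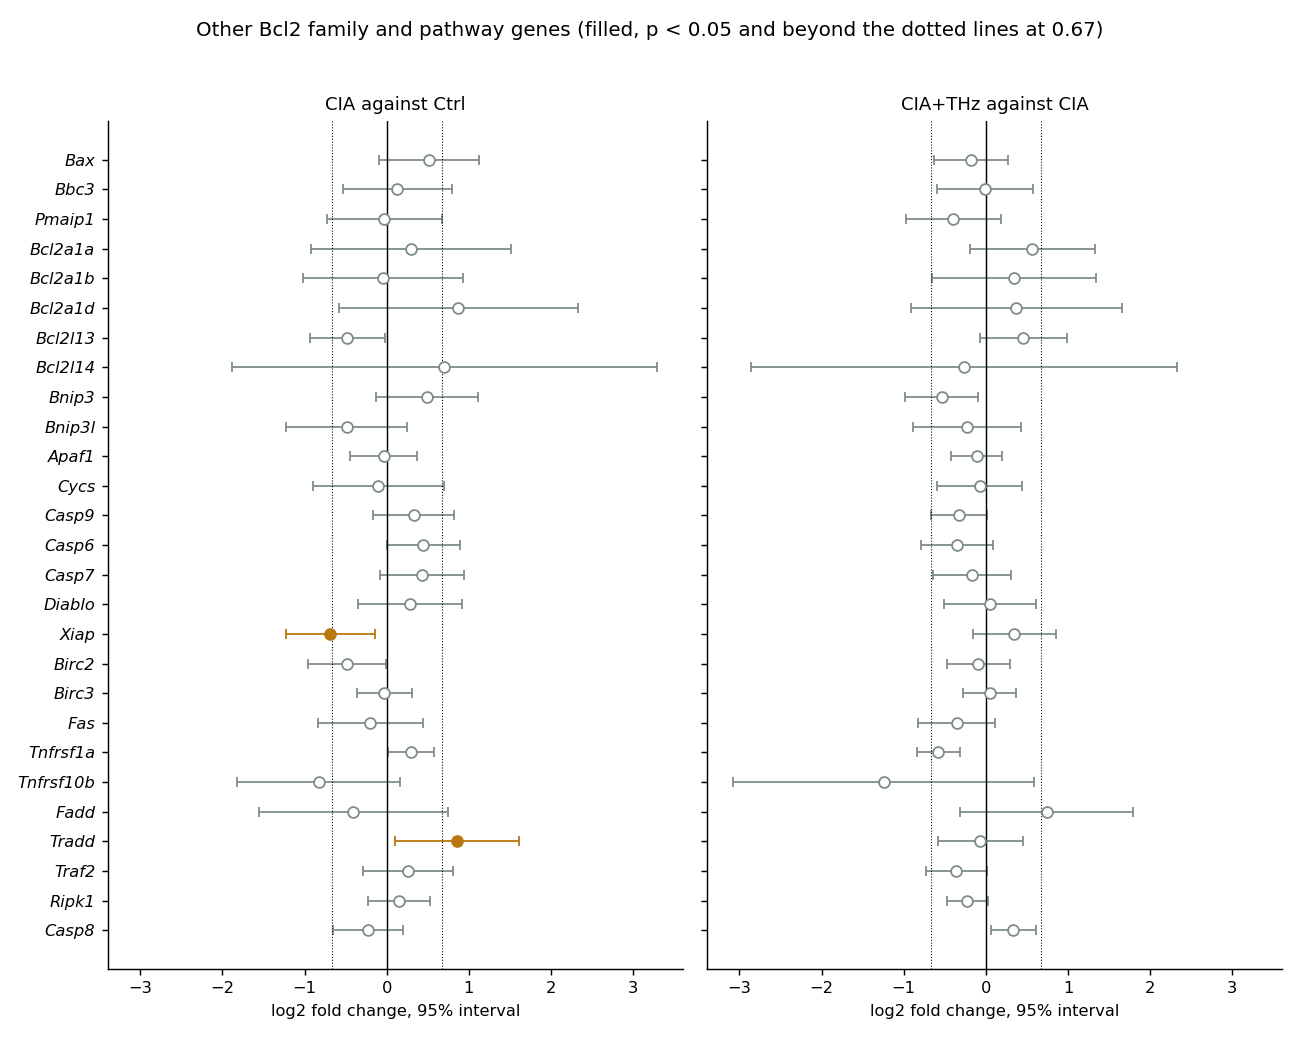
Log2 fold change (horizontal axes, with 95% intervals from limma, n = 3 against 3) of the other Bcl2 family, mitochondrial and death receptor genes reported here that were above 0 in each group. Filled points passed the criterion, and these were Xiap and Tradd in CIA against Ctrl.

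Markers of blood cell types moved with some of these results. The summed level of the 8 T cell genes was between 268 and 308 in Ctrl, between 225 and 246 in CIA and between 275 and 379 in CIA+THz. All 8 T cell genes had lower values in CIA than in Ctrl (0 of 8 passed the criterion, median log2 change -0.32) and all 8 had higher values in CIA+THz than in CIA (1 of 8 passed, median 0.34). Cd5, the most abundant of them, was the 1 that passed (0.79) and also had the largest fall in CIA against Ctrl (-0.53). Between CIA and Ctrl, Cd3d, Cd3g, Cd6 and Lat overlapped, whereas Cd3e, Cd5, Lck and Bcl11b did not. Relative to the geometric mean of the T cell genes, a scaling chosen after the data were seen, Bcl2 had a log2 difference of -0.47 (SE 0.15, adjusted p = 0.110) in CIA against Ctrl and of 0.46 (SE 0.20, adjusted p = 0.212) in CIA+THz against CIA, both under 0.05 before adjustment, of the same sign as before and below the fold limit. The 6 NK cell genes summed to between 141 and 182 in Ctrl, between 50.0 and 114 in CIA and between 92.2 and 145 in CIA+THz, whereas the 8 B cell genes, in the same order of groups, were between 423 and 521, between 495 and 626 and between 569 and 738.

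The 6 monocyte genes summed to between 461 and 487 in Ctrl, between 647 and 749 in CIA and between 563 and 592 in CIA+THz, and in CIA against Ctrl all 6 had higher values with a median of 0.99, and 3 of 6 passed the criterion, against 9.04% of all genes. Relative to these genes, Bak1 had a log2 difference of -0.17 (adjusted p = 0.506), Bad of 0.05 (adjusted p = 0.919) and Bmf of 0.30 (adjusted p = 0.431) in CIA against Ctrl. Before this scaling they were 0.68, 0.88 and 1.12. The 3 calls did not hold under it, and it was also chosen after the data were seen. Dividing by a list that rose lowers the change of nearly every gene by about the same amount. The lost calls therefore do not show whether these genes follow monocytes, which was not tested. The 4 neutrophil precursor granule genes were between 296 and 509 in Ctrl, between 546 and 1475 in CIA and between 326 and 443 in CIA+THz, but Lcn2 made up 81.2% to 82.1% of this sum in Ctrl. Without Lcn2, the other 3 (Camp, Ltf and Ngp) summed to between 53.1 and 95.8 in Ctrl, between 364 and 1215 in CIA and between 151 and 246 in CIA+THz. All 3 passed the criterion as higher in CIA and in CIA+THz than in Ctrl and as lower in CIA+THz than in CIA, whereas Lcn2 was lower in CIA+THz than in Ctrl (log2 change -0.80, adjusted p = 0.137) and did not pass in the other comparisons.

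The 7 reticulocyte genes were between 69244 and 103873 in Ctrl, between 87301 and 98012 in CIA and between 47541 and 65578 in CIA+THz, a sum of which Alas2 made up 98.95% or more in each library. The other 6 followed another order, with sums between 489 and 903 in Ctrl, between 339 and 629 in CIA and between 367 and 516 in CIA+THz. All 6 had lower values in CIA than in Ctrl (1 passed the criterion), and their log2 differences in CIA+THz against CIA lay between -0.26 and 0.032, with 0 past the criterion. Relative to the geometric mean of the 7 genes, Bcl2l1 differed by 0.086 (adjusted p = 0.778) in CIA+THz against Ctrl in place of -0.57. In the same order of groups, the 7 neutrophil genes were between 12257 and 20641, between 14161 and 18309 and between 10452 and 11892, and all 7 had lower values in CIA+THz than in CIA. The 6 leukocyte genes were between 1478 and 1632, between 1703 and 1900 and between 1559 and 1613, and the 6 platelet genes between 3999 and 4871, between 3848 and 4794 and between 3198 and 3873. Lower values in CIA+THz than in CIA were not particular to neutrophil genes. They were seen for all 6 platelet, all 4 neutrophil precursor granule, 5 of 6 monocyte, 5 of 6 leukocyte and 5 of 7 reticulocyte genes. All 8 T cell, all 6 NK cell and 6 of 8 B cell genes had higher values. The rescaling itself shifted this comparison by -0.28. No defining marker was at 0 in any library, and beyond these rescaled values the part of cell composition in the members' changes was not tested. The paper reports higher blood counts of lymphocytes, neutrophils and monocytes in CIA mice, and a smaller rise in CIA+THz mice. Those are cell numbers, whereas the sums here are relative RNA levels, and the T cell sum was lowest in CIA.

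**Figure D5:**
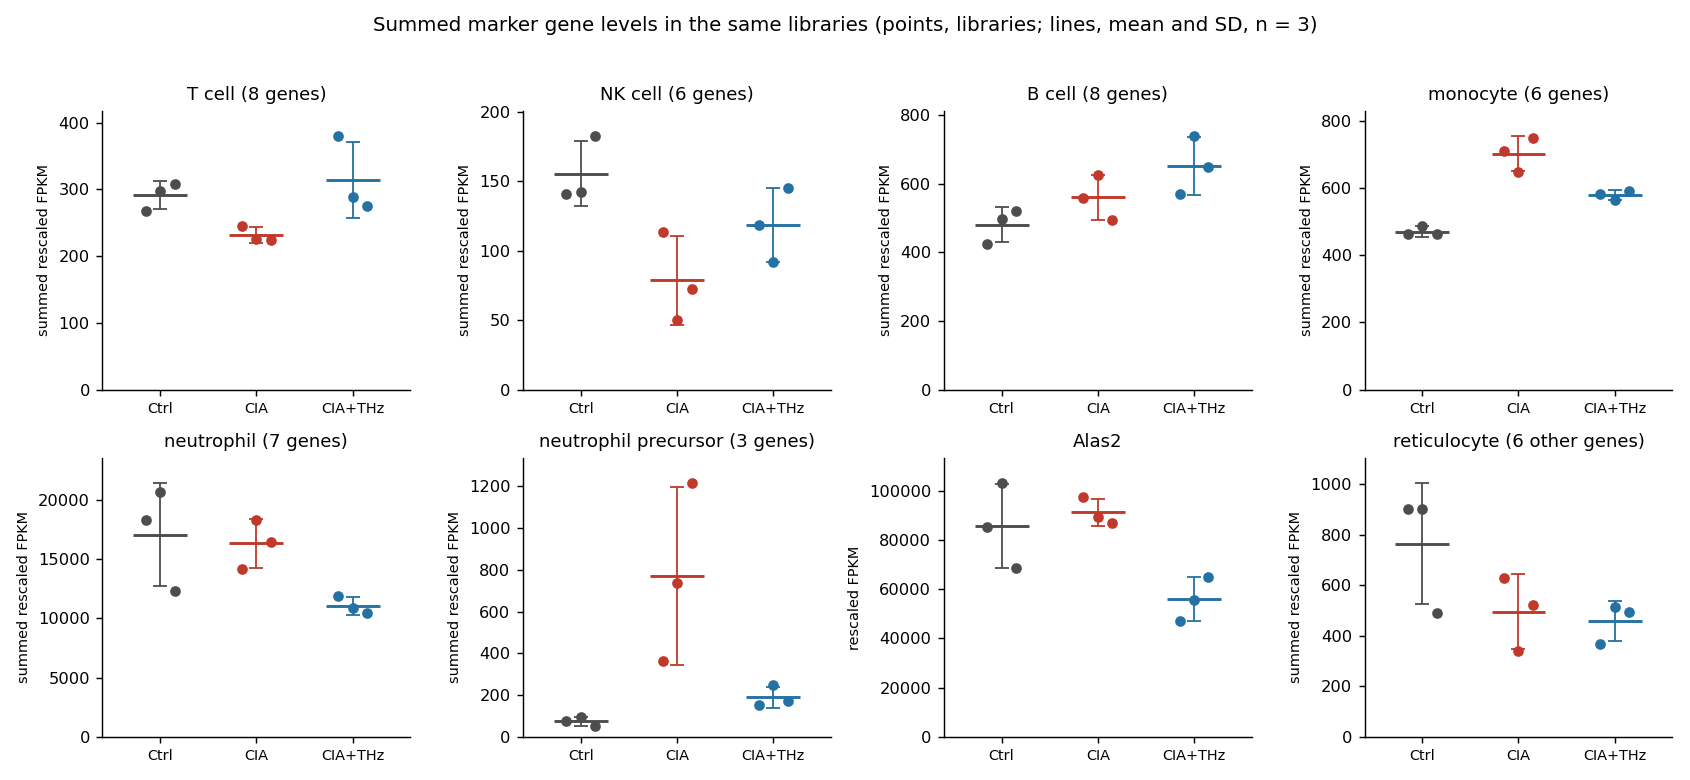
Summed rescaled FPKM of marker genes (vertical axes, from 0) by cell type, with the neutrophil precursor genes without Lcn2 and the reticulocyte genes split into Alas2 and the other 6, and with each library as a point and lines for the mean and SD (n = 3). The T cell sum, with Cd5 as its most abundant gene, is lowest in the 3 CIA libraries, and the monocyte sum is highest there. The neutrophil sum and Alas2 are lowest in CIA+THz, and the other reticulocyte genes overlap between CIA and CIA+THz. Rescaling lowered the CIA+THz libraries the most, and the orders of the monocyte and neutrophil sums do not hold on the FPKM as deposited.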

How the data were processed

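Blood RNA in 9 libraries was sequenced by the authors in paired-end mode after TruSeq RNA V2 preparation, which keeps no strand. The authors deposited FPKM for 20926 genes, 1 column per library, and the submitters' processing notes name bcl2fastq 2.0, HISAT2, StringTie, DESeq2 and the build mm10. Low values did not fall in steps of whole reads, so counting precision is unknown. Groups were taken from the sample labels.

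FPKM columns were divided by median-of-ratios factors taken from the 10312 genes that no library listed at 0. The 12366 genes with a mean of at least 0.1 were tested as log2(value + 0.1) with limma 3.58.1 (trend on the mean, each pair of groups in its own fit) in R 4.3.3, at a p under 0.05 before adjustment and a log2 change beyond 0.67 in either direction, or by the F-test across the 3 groups. P-values were adjusted by Benjamini-Hochberg over all genes tested. The labels name no animals, so p-values measure the spread between libraries, which may in part be technical. Ratios were compared by exact permutation in scipy 1.17.1. Positions and exon overlaps are from GENCODE M21 matched by symbol, and RefSeq windows were found for all 10 members.

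Named were all members, the listed pathway genes past the criterion in CIA against Ctrl or CIA+THz against CIA, and up to 4 of each list by mean level. A listed pathway gene is counted with its list but not reported here by name. Members and lists were chosen with earlier results of these data known. Alternatives were other scalings, pseudocounts and filters, no trend, a joint fit, the replicate block, leaving out libraries and the adjusted p, with 3 cell type scalings added after the data were seen. Scripts were tested on simulated data.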

Additional observations from a re-analysis of the deposited data

How the results depend on the processing

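The adjusted p in place of the unadjusted p left 19 genes and 0 members for CIA against Ctrl, 0 and 0 for CIA+THz against CIA, 13 and 0 for CIA+THz against Ctrl, and 313 and 1 across the 3 groups. The count of 0 members for CIA against Ctrl was not stable: Bcl2 was under an adjusted p of 0.05 with a pseudocount of 1 (0.0477, among 48 genes), with a minimum mean of 1 (0.0293, among 167) and with all 3 groups in 1 fit (0.0105, among 474), and Bak1 in the last (0.0287). For the other pairs of groups it stayed at 0 members under each alternative fit over all genes. On the FPKM as deposited, 1199 genes passed in CIA+THz against CIA (561 after rescaling) and 1720 genes and 3 members in CIA+THz against Ctrl (975 and 1 after rescaling). A pseudocount of 1 left 283 genes in CIA+THz against CIA. Leaving out each library gave between 966 and 1261, between 484 and 745, between 724 and 1487 and, across the 3 groups, between 2059 and 2789 genes, with 3 members throughout for CIA against Ctrl, 1 for CIA+THz against CIA and 1 to 2 for CIA+THz against Ctrl, where Bad was added without Ctrl 2 (0.81) and Bcl2l1 without Ctrl 3 (-0.81), and 5 to 7 across the 3 groups.

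Bcl2 and Bmf in CIA against Ctrl and Bcl2 in CIA+THz against CIA passed the criterion under every alternative tried except the adjusted p and, for Bcl2 (T cell genes: -0.47 and 0.46) and Bmf (monocyte genes: 0.30), the cell type scalings. Bak1 in CIA against Ctrl was under the fold limit with a pseudocount of 1 (0.66) and when scaled to the leukocyte genes (0.60). Signs turned on the deposited FPKM in CIA+THz against CIA for Mcl1 (0.056), Bak1 (0.16), Bid (0.077) and Bmf (0.12) and in CIA+THz against Ctrl for Cflar (0.0091) and Bid (0.16), and scaled to the leukocyte genes for Bid in CIA against Ctrl (-0.024), of which none was a call. Scaled to the reticulocyte genes, Bcl2l1 was at 0.31 in CIA against Ctrl and 0.086 in CIA+THz against Ctrl. Scaled to the monocyte genes, Bak1 was at -0.17 for CIA against Ctrl, at 0.034 for CIA+THz against CIA and at -0.14 for CIA+THz against Ctrl, and for the last Bad was at -0.16 and Bmf at 0.29. Scaled to the T cell genes, Bcl2 was at -0.0090 in CIA+THz against Ctrl. Apart from their construction, the cause of these shifts was not tested.

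With a library left out, signs turned for Bcl2l1 (-0.41 to 0.014) and Bid (-0.018 to 0.11) in CIA against Ctrl, for Bmf (-0.36 to 0.13) in CIA+THz against CIA, and in CIA+THz against Ctrl for Bcl2 (-0.11 to 0.12), Bcl2l2 (-0.094 to 0.51), Bcl2l11 (-0.17 to 0.20) and the ratio of Bcl2 to Bcl2l11 (-0.17 to 0.12). The labels give replicate numbers no shared animal or batch (correlations of same-numbered deviations -0.05 to 0.03). With the replicate block, 1073, 506 and 967 genes passed in the 3 comparisons and 2399 across the groups, with 4, 1, 1 and 6 members, and it changed no member's call. Depth was unknown, and the scarcest member, Bcl2l2, had the largest standard error of the members in each comparison (0.36, 0.38 and 0.38).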

Other observations

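In CIA+THz against Ctrl, 4 of the 30 tested among the 32 listed pathway genes passed the criterion, against 7.88% of all genes tested, and these were named after their values were seen. Tradd rose by 0.79 (adjusted p = 0.193 in limma) and Bnip3l fell by 0.72 (adjusted p = 0.241). The death receptor Tnfrsf10b fell from a mean of 0.943 to 0.251 rescaled FPKM (adjusted p = 0.214), and Bcl2a1d was at 0.225 and 0.660 (adjusted p = 0.210). The last pair lies at levels where the pseudocount weighs on the fold change, and Bcl2a1d is uncertain because its reads can be split with near-identical genes. Birc2 had a log2 difference of -0.57 (adjusted p = 0.185) in the same comparison, below the fold limit.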
